A study of Danio rerio with 10 samples.

Results

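The genes described here code for the machinery that carries proteins between the endoplasmic reticulum (ER) and the Golgi: the COPII coat, the COPI coat, the p24 (tmed) family, cargo receptors, KDEL receptors, the SNAREs of this step, and the tethers and membrane proteins that receive its vesicles. They were chosen by name, from a list of 46 zebrafish gene names matched to the gene symbols of the count tables in any case, and without the paralog letter where the full name was absent. The list was drawn up with earlier results of these data known. The list matched 44 names, 37 as written and 7 without their paralog letter, and led to 48 of the 32105 gene identifiers. Names for sar1aa and sec16a matched no identifier and are not analysed here. Of the 48 genes, 12 belong to the COPII coat, 9 to the COPI coat, 9 to the p24 family, 5 are cargo receptors, 4 are KDEL receptors, 6 are SNAREs and 3 are tethers or Golgi membrane proteins. Symbols are printed as the naming table gives them, in capitals for many genes, and an identifier is added where 2 genes share a symbol.

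COPII vesicles bud from the ER when the GTPase Sar1 recruits the inner coat of Sec23 and Sec24, which binds cargo, and the outer cage of Sec13 and Sec31, at sites organised by Sec16. COPI vesicles carry escaped ER proteins and recycling receptors back from the Golgi, with KDEL receptors binding the retrieval signal of ER chaperones. Hepatocytes secrete most plasma proteins and lipoproteins through this route. Atf6 is an ER membrane protein whose freed cytosolic fragment, nAtf6, acts as a transcription factor of the unfolded protein response.

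The study measured RNA in pools of dissected zebrafish livers in which nAtf6 was overexpressed from the hepatocyte promoter fabp10, in a line of allele C that also carries cmlc2:GFP as a heart marker. At 5 dpf, 3 nAtf6 TG pools and 3 sibling pools of 25 livers each came from 3 clutches, from carriers that the protocol of these libraries says were outcrossed to WT TAB fish. The description of the series names a cross with Tg(fabp10a:CAAX-EGFP) at this age too, and siblings are labelled WT. At 78 hpf, 4 pools of 20 livers came from 2 clutches of a cross of Tg(fabp10:nAtf6-cherry; cmlc2:GFP)-C with Tg(fabp10a:CAAX-EGFP), a line with green livers. All larvae at this age were sorted for the green liver, those taken to express nAtf6 had green hearts and their siblings had none. The RNA was depleted of ribosomal RNA at 5 dpf, although the label of these libraries names polyA RNA, and selected by polyA at 78 hpf. Age, RNA selection and depth therefore differ together and cannot be told apart. The promoter drives nAtf6 only in hepatocytes, the line is a single allele, and each pool also holds the other cells of the dissected liver. In such bulk samples, fewer cells of a type and less RNA per cell cannot be told apart.

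The groups at 78 hpf are uncertain. The titles of 2 libraries call them siblings while their files are named Natf6, the titles of the other 2 call them transgenic while their files are named Sibs, and all 4 carry the same genotype entry. The treatment protocol uses the names Natf6 and Sibs for larvae with and without nAtf6. They are called the libraries named Natf6 (titled sibling) and the libraries named Sibs (titled transgenic), and every difference at 78 hpf is Natf6-named minus Sibs-named. By the titles, every sign at 78 hpf would turn round. Reads of atf6, which count the endogenous gene and the transgene together, were checked first. There were 8241, 9846 and 12684 counts in nAtf6 TG libraries against 2018, 1636 and 1814 counts in sibling libraries at 5 dpf, and 1199 and 1926 counts in the Natf6-named libraries against 463 and 236 counts in the Sibs-named libraries at 78 hpf. The level of atf6 was therefore higher in the libraries whose titles say sibling, against the titles of 78 hpf.

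Counts on genes were 17622825 to 22963880 per nAtf6 TG library and 20081133 to 22293405 per sibling library at 5 dpf, against 5910689 and 6354867 in the Natf6-named and 4868321 and 5733330 in the Sibs-named libraries. Libraries stood apart within groups. Over log2 CPM, nAtf6 TG libraries 2 and 3 had a Pearson correlation of 0.992 and sibling libraries 1 and 3 of 0.991, while nAtf6 TG library 1 reached 0.956 and 0.957 and sibling library 2 reached 0.945 and 0.944 with the others of their group. Levels below are CPM after TMM scaling, that is counts scaled to the size of the library, and compare libraries of the same age for the same gene. The TMM factor of sibling library 2 was 0.758 against 1.11 in each of the other siblings. This library was therefore the highest sibling for 42 of the 48 genes on the TMM scale and for 14 of 48 by total counts. Overlap of levels between groups was judged on the TMM scale. Markers of hepatocytes had the largest summed level of the marker lists in every library, at 60164 to 70416 CPM by total counts in nAtf6 TG and 92863 to 111514 CPM in sibling libraries. Of the 12 hepatocyte markers, 1 was called higher and 1 lower in nAtf6 TG livers, with a median log2 fold change of -0.65. The 12 exocrine pancreas markers summed to 985 to 1703 CPM in nAtf6 TG libraries and to 4212, 1372 and 4684 CPM in sibling libraries 1, 2 and 3, with 7 of 12 lower in nAtf6 TG livers. Biliary markers summed to 761 to 1566 CPM in nAtf6 TG and 365 to 590 CPM in sibling libraries, with 2 of 5 higher. Most of these sums came from krt18a.1, at 265 to 926 CPM in nAtf6 TG and 121 to 176 CPM in sibling libraries, and ANXA4, at 475 to 597 and 231 to 365 CPM. By total counts, epcam and both SOX9 genes overlapped between the groups. The part of these cell types in the results at 5 dpf was not tested. Sibling library 2, whose pancreas sum lay within the range of the nAtf6 TG libraries, is left out below where that changes a call. The siblings then left had pancreas sums of 4212 and 4684 CPM, above every nAtf6 TG library. Leaving it out also raised the calls over all genes, from 3913 of 18470 tested to 7598 of 20061. Calls gained that way were thus not limited to transport genes.

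Transport genes were raised at 5 dpf. Of the 48 genes, all of them tested, 30 were higher in nAtf6 TG than in sibling livers at an adjusted p under 0.05 in edgeR's quasi-likelihood test, none was lower, and 18 did not pass. Over all 18470 genes tested, 13.7% were higher and 7.48% lower. Since the list was drawn up with earlier results known, these shares are a description and not a test. The median log2 fold change of the 48 genes was 1.02, with a range of -0.47 to 3.32, beside -0.04 over all genes tested. In 34 of the 48, every nAtf6 TG library lay above every sibling library, and in 1, TMED5, every nAtf6 TG library lay below, where all genes gave 22.6% and 17.2%. Without nAtf6 TG library 2 or 3, or sibling library 1 or 3, 19 transport genes passed in each case. Over all genes, 1361 to 1714 of 18643 to 20077 tested then passed, in either direction. Without sibling library 2, 37 transport genes passed, beside 7598 of all 20061 genes tested. With all 6 libraries, 3913 of 18470 genes passed. The same 19 genes passed in all 14 fits made at this age, and the 30 genes had a log2 fold change above 0 in each of them.

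**Figure D1:**
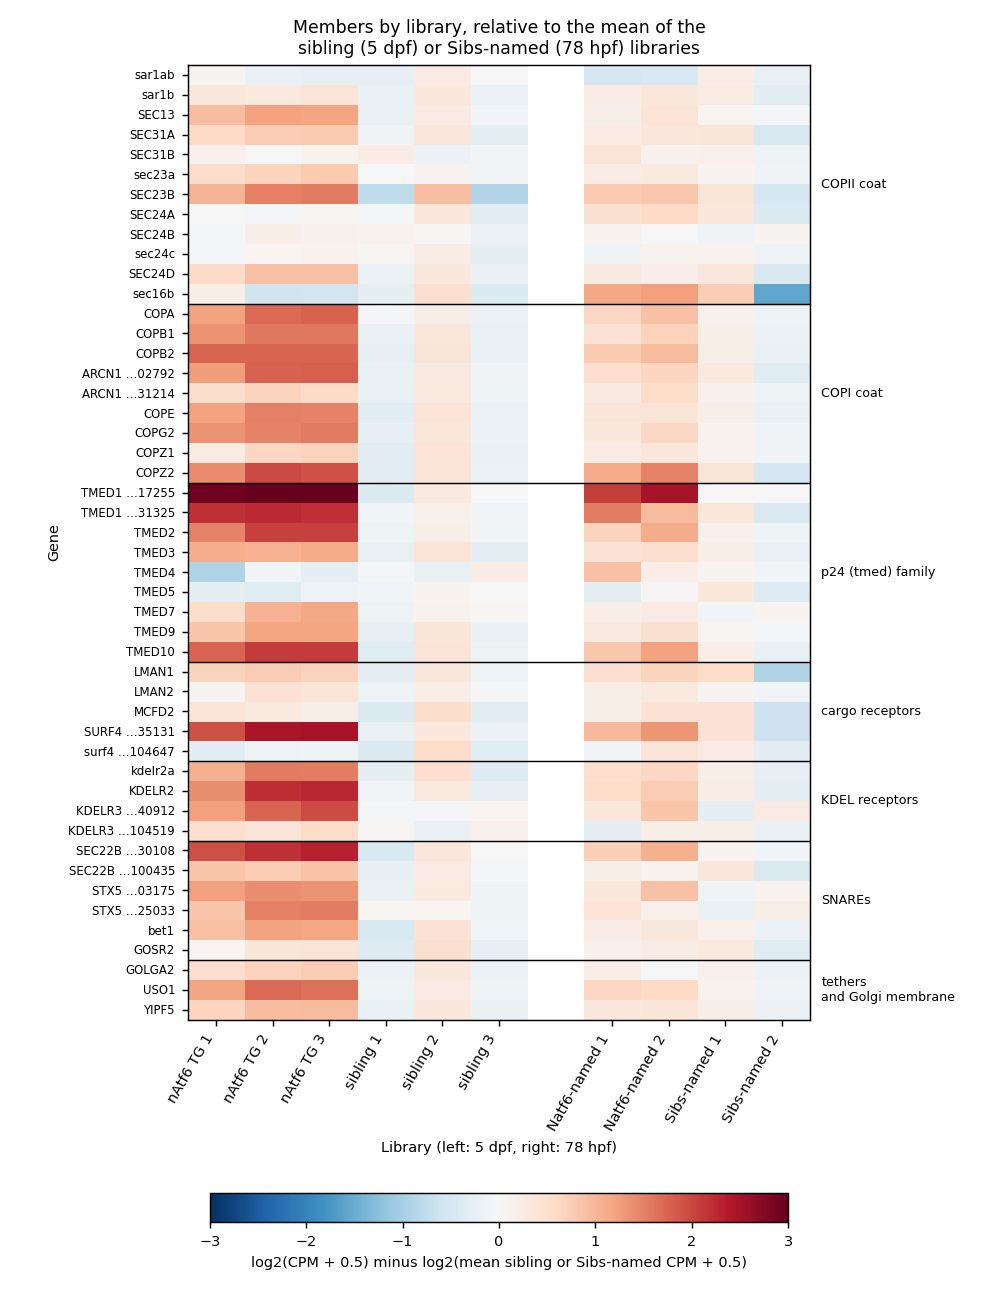
Level of each of the 48 genes (rows, grouped by role) in each library (columns), as log2(CPM + 0.5) minus the log2 of the mean of the sibling libraries at 5 dpf (left block) or of the Sibs-named libraries at 78 hpf (right block), with red for higher and blue for lower. The nAtf6 TG columns are red for most of the COPI, p24, KDEL receptor and SNARE rows, while several COPII rows stay pale, and sibling library 2 is tinted red against siblings 1 and 3.

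The classes differed in how many of their genes passed, where 13.7% of all genes tested were higher. Among COPII coat genes 4 of 12 rose, among COPI coat genes 7 of 9, in the p24 family 7 of 9, among cargo receptors 2 of 5, among KDEL receptors 3 of 4, among SNAREs 5 of 6 and among tethers and Golgi membrane proteins 2 of 3. The median log2 fold changes were 0.22 for COPII, 1.51 for COPI, 1.11 for p24, 0.30 for cargo receptors, 1.66 for KDEL receptors, 1.25 for SNAREs and 0.87 for tethers. Differences between the classes were not tested. The summed level by total counts averaged 1022 ± 99.8 CPM in nAtf6 TG and 587 ± 36.6 CPM in sibling livers for the COPII coat (SD, n = 3 each), a ratio of 1.74. It averaged 1464 ± 157 CPM in nAtf6 TG and 505 ± 5.99 CPM in sibling livers for the COPI coat, a ratio of 2.90, and 1063 ± 164 against 303 ± 13.6 CPM for the p24 family, a ratio of 3.51. Within the counts of all 48 genes, which no scaling between libraries touches, the COPII coat took 21.3%, 20.0% and 20.4% in nAtf6 TG libraries 1 to 3 against 30.2%, 30.8% and 27.9% in sibling libraries 1 to 3. The p24 family took 20.5%, 21.5% and 21.8% in nAtf6 TG libraries against 15.0%, 14.7% and 16.2% in siblings. COPI took 29.0% to 30.1% in nAtf6 TG and 24.8% to 26.1% in sibling libraries. The ranges of these 3 classes did not overlap between the groups, and neither did those of any other class. KDEL receptors averaged 6.34% in nAtf6 TG and 4.98% in sibling libraries. The shares of cargo receptors (12.8% against 14.2%), SNAREs (4.03% against 4.35%) and tethers (5.47% against 5.99%) were lower in nAtf6 TG libraries. All are parts of the same total, so they move together and a lower share does not mean a lower level. Long and abundant genes weigh most in such sums.

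**Figure D2:**
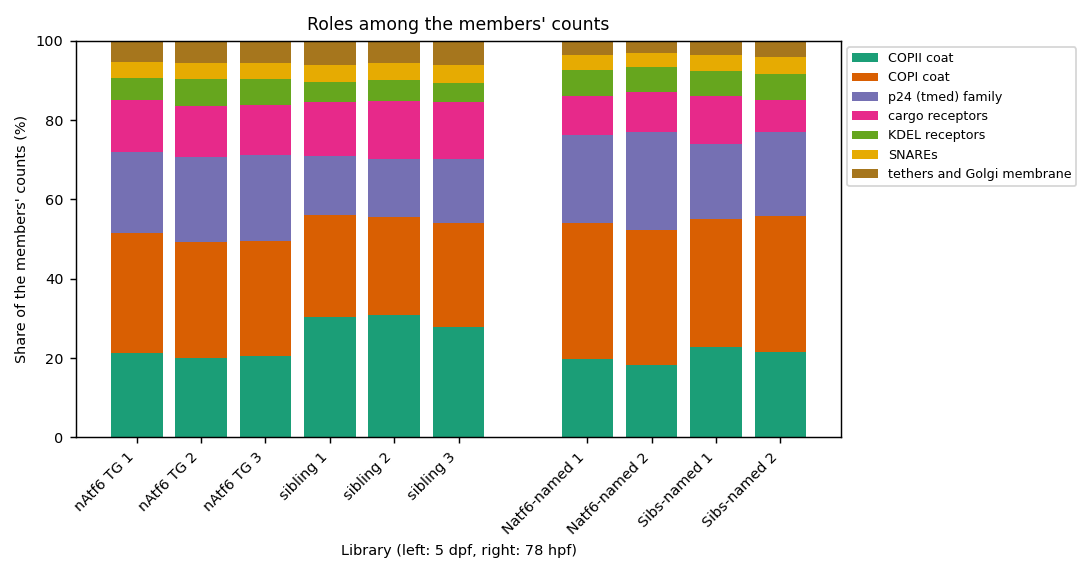
Share of the counts of the 48 genes (percent) taken by each role, stacked for each library, with 5 dpf at the left and 78 hpf at the right. COPII, at the bottom, took 20.0% to 21.3% in nAtf6 TG libraries and 27.9% to 30.8% in sibling libraries.

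In the COPII coat, SEC13, SEC31A, sec23a and SEC24D passed the test. SEC13, a cage subunit that also serves the nuclear pore, had 58.6, 71.3 and 70.8 CPM in nAtf6 TG against 26.3, 36.7 and 29.0 CPM in sibling livers, a change of log2 fold change 1.13, SE 0.19, adjusted p = 0.00716. SEC31A, its partner in the cage, had 78.8, 88.5 and 91.2 CPM in nAtf6 TG against 48.2, 66.3 and 42.5 CPM in sibling livers (log2 fold change 0.72, SE 0.21, adjusted p = 0.0459), and its call was lost with RLE scaling, in the model of all 10 libraries, when replicate numbers were blocked, and when nAtf6 TG library 2 or 3 or sibling library 1 or 3 was left out (adjusted p = 0.063 to 0.173). SEC31B, the other Sec31 gene, had 23.7, 21.4 and 23.5 CPM in nAtf6 TG against 25.6, 19.0 and 20.5 CPM in sibling livers (log2 fold change 0.07, SE 0.16, adjusted p = 0.77). Every nAtf6 TG library was above every sibling library for SEC13 and SEC31A, and the groups overlapped for SEC31B.

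In the inner coat, sec23a passed and its paralog SEC23B, with the larger log2 fold change, did not. For sec23a, a GTPase activator of Sar1, there were 77.3, 83.5 and 90.8 CPM in nAtf6 TG against 52.5, 55.2 and 49.1 CPM in sibling livers (log2 fold change 0.68, SE 0.15, adjusted p = 0.0215), with an adjusted p of 0.0618 with a replicate block and of 0.0793 to 0.124 without nAtf6 TG library 2 or 3 or sibling library 1 or 3. SEC23B had 243, 342 and 349 CPM in nAtf6 TG against 69.7, 222 and 64.7 CPM in sibling livers, with a log2 fold change of 1.39, an SE of 0.49 and an adjusted p of 0.0818, against 0.029 in DESeq2, 0.0368 with a replicate block and 0.0195 by library size. Sibling library 2 stood far above its group for SEC23B, near nAtf6 TG library 1, and without it the log2 fold change was 2.23 at an adjusted p of 0.000883. Of the 4 Sec24 genes, whose proteins select cargo, SEC24D had 135, 168 and 168 CPM in nAtf6 TG against 80.2, 114 and 79.6 CPM in sibling livers (log2 fold change 0.78, SE 0.21, adjusted p = 0.0389). It passed with no overlap, but its adjusted p was 0.0533 with RLE scaling, 0.0816 in the model of all 10 libraries, 0.0548 with a replicate block and 0.132 to 0.160 without nAtf6 TG library 2 or 3 or sibling library 1 or 3. SEC24A had 65.7, 64.0 and 69.0 CPM in nAtf6 TG against 64.7, 82.8 and 52.8 CPM in sibling livers (log2 fold change -0.01, SE 0.20, adjusted p = 0.973). For SEC24B there were 20.2, 23.7 and 22.8 CPM in nAtf6 TG against 22.3, 21.5 and 18.5 CPM in sibling livers, and for sec24c 30.7, 33.4 and 34.9 CPM in nAtf6 TG against 32.9, 37.5 and 26.2 CPM in sibling livers. The groups overlapped for all 3, whose log2 fold changes were -0.01, 0.10 and 0.04 with SEs of 0.20, 0.15 and 0.18.

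The GTPases and the scaffold of ER exit sites did not pass. The level of sar1b, which in human is needed for the export of chylomicrons, was 119, 114 and 122 CPM in nAtf6 TG against 81.1, 116 and 82.6 CPM in sibling livers (log2 fold change 0.34, SE 0.19, adjusted p = 0.234). On the TMM scale the groups overlapped through sibling library 2, while by total counts every nAtf6 TG library was above every sibling. Without that library the log2 fold change was 0.55 at an adjusted p of 0.0132. The other Sar1 gene, sar1ab, had 16.5, 13.4 and 13.0 CPM in nAtf6 TG against 12.9, 18.4 and 15.3 CPM in sibling livers (log2 fold change -0.12, SE 0.18, adjusted p = 0.67). For sec16b, which codes for a Sec16 scaffold protein, 24.6, 14.1 and 14.3 CPM in nAtf6 TG against 17.8, 31.0 and 16.1 CPM in sibling livers were found (log2 fold change -0.29, SE 0.32, adjusted p = 0.541), with nAtf6 TG library 1 and sibling library 2 high in their groups.

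Of the COPI subunits 7 of 9 rose at 5 dpf, and all 9 log2 fold changes were above 0. The largest were those of COPZ2 and COPB2. COPZ2, which codes for a zeta subunit of coatomer, had 50.3, 74.7 and 71.7 CPM in nAtf6 TG against 14.9, 24.4 and 16.3 CPM in sibling livers (log2 fold change 1.82, SE 0.26, adjusted p = 0.00354). COPB2, which codes for the beta-prime subunit that binds dilysine signals, had 343, 342 and 344 CPM in nAtf6 TG against 85.9, 133 and 87.4 CPM in sibling livers (log2 fold change 1.75, SE 0.22, adjusted p = 0.00243). Levels of COPB2 in the nAtf6 TG libraries were close to each other, above all siblings. The subunits COPA, COPB1, COPG2 and COPE had log2 fold changes of 1.58, 1.51, 1.47 and 1.41, and adjusted p of 0.00318 to 0.00744. The delta and zeta subunits have paired genes here, of which 1 each passed. ARCN1 ENSDARG00000002792, of the delta subunit, had 101, 145 and 146 CPM in nAtf6 TG against 36.4, 50.8 and 38.9 CPM in sibling livers (log2 fold change 1.63, SE 0.23, adjusted p = 0.00335). ARCN1 ENSDARG00000031214, the other delta gene, had 105, 115 and 108 CPM in nAtf6 TG against 62.0, 89.4 and 66.1 CPM in sibling livers (log2 fold change 0.59, SE 0.19, adjusted p = 0.0651), did not overlap, and had an adjusted p of 0.00496 without sibling library 2. COPZ1, the other zeta gene, had 40.1, 52.3 and 54.8 CPM in nAtf6 TG against 26.8, 45.3 and 29.4 CPM in sibling livers (log2 fold change 0.54, SE 0.24, adjusted p = 0.152) and overlapped. By total counts every nAtf6 TG library was above every sibling for COPZ1. Without sibling library 2 its log2 fold change was 0.82 at an adjusted p of 0.0128, and its adjusted p was 0.0433 by library size. Reads shared by such close paralogs make the split of their counts uncertain.

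The p24 family, membrane proteins that load cargo into both kinds of vesicle, held the largest change. TMED1 ENSDARG00000017255 had 74.3, 93.7 and 112 CPM in nAtf6 TG against 6.96, 11.6 and 9.42 CPM in sibling livers, log2 fold change 3.32, SE 0.26, adjusted p = 0.000352, a fold change of 10.0. TMED1 ENSDARG00000031325, a second gene under this symbol, had 7.95, 8.29 and 7.97 CPM in nAtf6 TG against 1.26, 1.54 and 1.25 CPM in sibling livers (log2 fold change 2.58, SE 0.18, adjusted p = 0.000224). Both were above all siblings in every nAtf6 TG library. TMED10 and TMED2, which code for core subunits of p24 complexes, had log2 fold changes of 2.00 and 1.90 (adjusted p = 0.00232 and 0.00174). TMED3, TMED9 and TMED7 had 1.11, 1.08 and 0.96 (adjusted p = 0.0135 to 0.0185). Each of these 3 lost its call without nAtf6 TG library 2 or 3 or sibling library 1 or 3 (adjusted p = 0.0582 to 0.0868). TMED5 and TMED4 did not pass. TMED5 had 11.3, 10.4 and 12.3 CPM in nAtf6 TG against 12.9, 14.5 and 13.6 CPM in sibling livers (log2 fold change -0.27, SE 0.14, adjusted p = 0.209), with every nAtf6 TG library below every sibling on the TMM scale. By total counts the groups overlapped for TMED5 through sibling library 2. TMED4 was low everywhere, with 1.01, 2.14 and 1.84 CPM in nAtf6 TG against 2.24, 1.90 and 2.80 CPM in sibling livers (log2 fold change -0.47, SE 0.33, adjusted p = 0.334).

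**Figure D3:**
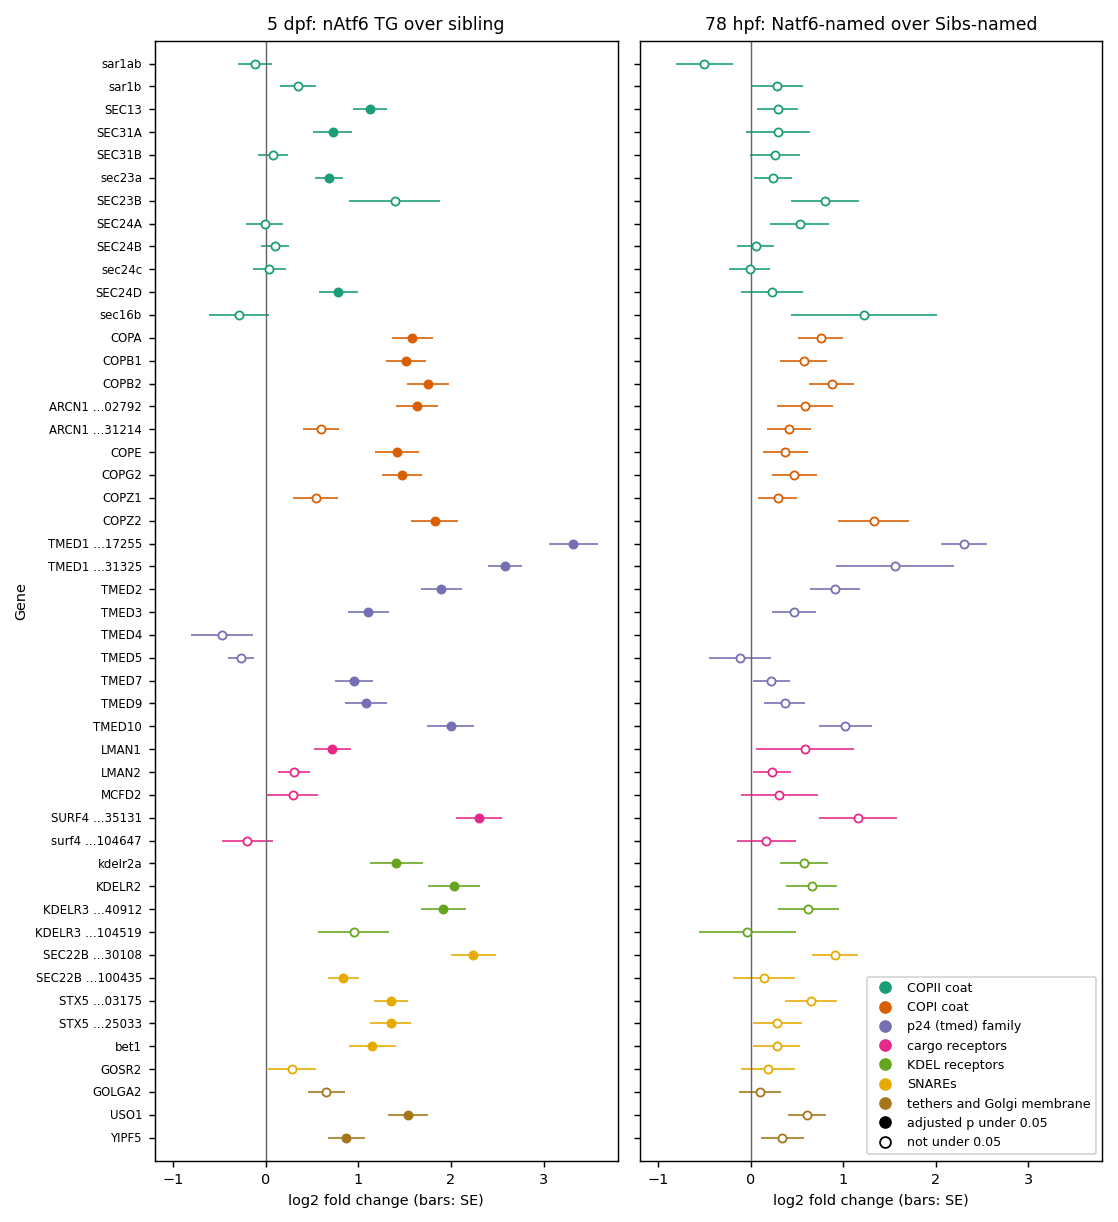
log2 fold change (points) and its standard error (bars) of each gene, coloured by role, for nAtf6 TG over sibling at 5 dpf (left) and Natf6-named over Sibs-named at 78 hpf (right), with filled points at an adjusted p under 0.05. At 5 dpf 30 of 48 points are filled, with TMED1 ENSDARG00000017255 farthest right at 3.32, and at 78 hpf none of 47 is filled though 43 lie above 0.

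Cargo receptors split. SURF4 ENSDARG00000035131, a Surf4 gene, whose human protein exports lipoproteins and other secreted cargo, had 239, 344 and 349 CPM in nAtf6 TG against 54.7, 78.5 and 55.6 CPM in sibling livers (log2 fold change 2.30, SE 0.25, adjusted p = 0.0012). A second gene, surf4 ENSDARG00000104647, had 21.1, 23.4 and 23.8 CPM in nAtf6 TG against 19.7, 38.8 and 20.1 CPM in sibling livers (log2 fold change -0.20, SE 0.28, adjusted p = 0.631). The first was far above all siblings, and the groups overlapped for the second, where sibling library 2 was the highest of all. LMAN1, the lectin that in human carries coagulation factors out of the ER, had 148, 154 and 146 CPM in nAtf6 TG against 75.5, 114 and 83.7 CPM in sibling livers (log2 fold change 0.72, SE 0.20, adjusted p = 0.0421). It passed, but not with RLE scaling (adjusted p = 0.0594), in the model of all 10 libraries (adjusted p = 0.197), with a replicate block (adjusted p = 0.0654) or without any library other than sibling 2 (adjusted p = 0.0516 to 0.163). MCFD2, the partner of LMAN1, had 107, 99.0 and 92.0 CPM in nAtf6 TG against 60.9, 118 and 64.8 CPM in sibling livers (log2 fold change 0.29, SE 0.27, adjusted p = 0.476). On the TMM scale sibling library 2 was the highest of all for MCFD2, but by total counts it was below every nAtf6 TG library. Without this library the log2 fold change of MCFD2 was 0.68 at an adjusted p of 0.0102. LMAN2, a related lectin, had 36.4, 46.5 and 44.4 CPM in nAtf6 TG against 30.8, 39.3 and 33.2 CPM in sibling livers (log2 fold change 0.30, SE 0.17, adjusted p = 0.247). The groups overlapped on the TMM scale through sibling library 2, while by total counts every nAtf6 TG library was above every sibling for LMAN2.

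KDEL receptors were raised in 3 of 4 genes. KDELR2, matched for kdelr2b, had 61.5, 109.6 and 112 CPM in nAtf6 TG against 21.7, 28.2 and 19.3 CPM in sibling livers (log2 fold change 2.03, SE 0.28, adjusted p = 0.00338). Its paralog kdelr2a had 166, 233 and 229 CPM in nAtf6 TG against 64.6, 112 and 60.4 CPM in sibling livers (log2 fold change 1.41, SE 0.29, adjusted p = 0.0149), with nAtf6 TG library 1 and sibling library 2 nearest to each other. The call of kdelr2a was lost without nAtf6 TG library 2 or 3 or sibling library 1 or 3 (adjusted p = 0.0633 to 0.0719). KDELR3 ENSDARG00000040912 was scarce, with 5.12, 7.52 and 8.78 CPM in nAtf6 TG against 1.84, 1.84 and 1.98 CPM in sibling livers (log2 fold change 1.92, SE 0.24, adjusted p = 0.00238). KDELR3 ENSDARG00000104519 stood at 0.694, 0.604 and 0.728 CPM in nAtf6 TG against 0.359, 0.237 and 0.430 CPM in sibling livers (log2 fold change 0.95, SE 0.39, adjusted p = 0.12). These levels came from 13, 11 and 17 counts in nAtf6 TG against 8, 4 and 10 counts in sibling libraries. In all 4 genes every nAtf6 TG library was above every sibling, beside 22.6% of all genes tested. For KDELR3 ENSDARG00000104519 this order rests on few counts.

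Among the SNAREs that fuse these vesicles, SEC22B ENSDARG00000030108 had 28.4, 33.8 and 36.8 CPM in nAtf6 TG against 4.94, 9.07 and 7.01 CPM in sibling livers (log2 fold change 2.24, SE 0.24, adjusted p = 0.00126). SEC22B ENSDARG00000100435 had 25.1, 24.1 and 25.4 CPM in nAtf6 TG against 11.8, 16.6 and 13.4 CPM in sibling livers (log2 fold change 0.84, SE 0.17, adjusted p = 0.0135). Neither overlapped, and the call of the second was lost without nAtf6 TG library 2 or 3 or sibling library 1 or 3 (adjusted p = 0.0597 to 0.0667). STX5 ENSDARG00000003175, of the Golgi syntaxin, had 48.8, 54.2 and 52.6 CPM in nAtf6 TG against 17.5, 25.1 and 18.4 CPM in sibling livers (log2 fold change 1.35, SE 0.19, adjusted p = 0.00331). STX5 ENSDARG00000025033 and bet1 also rose, by log2 fold changes of 1.35 and 1.15 (adjusted p = 0.00647 and 0.021), and bet1 was lost in the same 4 reduced sets (adjusted p = 0.0616 to 0.0907). GOSR2, the membrin SNARE, had 27.3, 33.9 and 34.4 CPM in nAtf6 TG against 19.9, 36.9 and 22.0 CPM in sibling livers (log2 fold change 0.28, SE 0.26, adjusted p = 0.457) and overlapped through sibling library 2, without which its adjusted p was 0.0221. USO1, the p115 tether, had 118, 169 and 162 CPM in nAtf6 TG against 46.6, 61.3 and 46.7 CPM in sibling livers (log2 fold change 1.54, SE 0.22, adjusted p = 0.00349). YIPF5, a Golgi membrane protein, had 30.4, 37.4 and 38.0 CPM in nAtf6 TG against 16.9, 24.2 and 16.9 CPM in sibling livers (log2 fold change 0.87, SE 0.20, adjusted p = 0.0224), with an adjusted p of 0.0908 to 0.102 in the same 4 reduced sets. GOLGA2, the golgin GM130, had 73.6, 83.8 and 88.5 CPM in nAtf6 TG against 45.7, 64.9 and 45.7 CPM in sibling livers (log2 fold change 0.65, SE 0.20, adjusted p = 0.0542), no overlap, and an adjusted p of 0.00486 without sibling library 2.

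**Figure D4:**
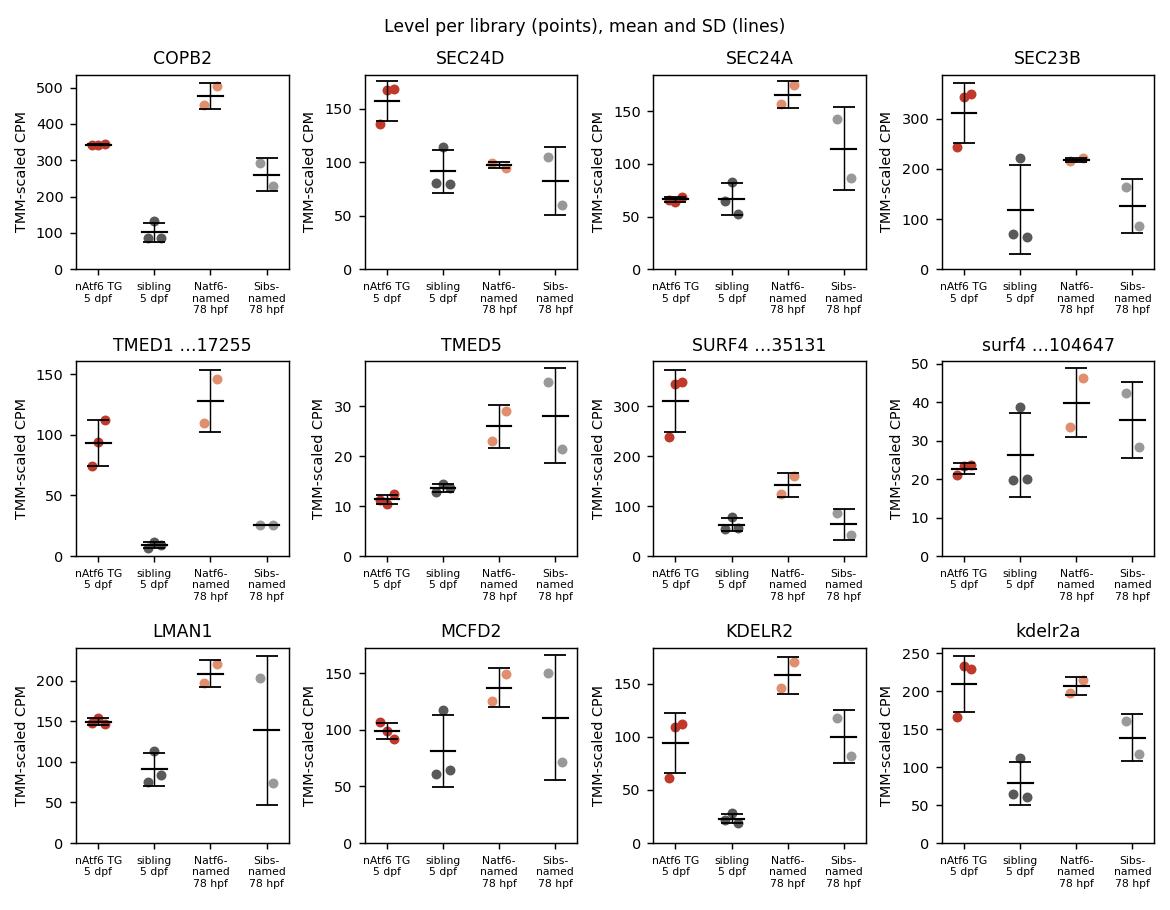
TMM-scaled CPM of 12 genes in each library (points), with the mean and SD of each group (lines, n = 3 at 5 dpf and n = 2 at 78 hpf), groups from left to right nAtf6 TG and sibling at 5 dpf and Natf6-named and Sibs-named at 78 hpf. The nAtf6 TG points of COPB2, TMED1 ENSDARG00000017255, SURF4 ENSDARG00000035131 and KDELR2 lie above all siblings, while SEC24A, MCFD2 and surf4 ENSDARG00000104647 overlap and sibling library 2 lifts the sibling mean of SEC23B.

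The shares of paralogs within a family show the same data without scaling between libraries. With 3 libraries a group, the smallest p that the 2-sided exact permutation test allows is 0.1, so no share could pass. COPZ2 took 55.6%, 58.8% and 56.6% of the copz counts in nAtf6 TG libraries against 35.6%, 35.0% and 35.8% in siblings. ARCN1 ENSDARG00000002792 took 49.1%, 55.6% and 57.4% of its pair in nAtf6 TG libraries against 37.0%, 36.2% and 37.0% in siblings. SURF4 ENSDARG00000035131 took 91.9%, 93.6% and 93.6% in nAtf6 TG libraries against 73.5%, 66.9% and 73.4% in siblings. In each of these 3 pairs the share was higher in every nAtf6 TG library than in any sibling library. SEC22B ENSDARG00000030108 averaged 56.9% ± 3.31 in nAtf6 TG and 33.1% ± 3.08 in sibling libraries, and SEC24D 56.3% ± 2.25 of the sec24 counts in nAtf6 TG and 43.2% ± 2.73 in sibling libraries (SD, n = 3 each), both without overlap (exact permutation p = 0.1). Among KDEL receptor counts, KDELR2 averaged 29.8% ± 3.05 in nAtf6 TG and 22.6% ± 2.42 in siblings, also without overlap. The share of sar1ab in the sar1 counts was 10.8% ± 1.32 in nAtf6 TG and 14.4% ± 1.1 in siblings. The shares of SEC23B, SEC31A and STX5 ENSDARG00000003175 overlapped between the groups.

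**Figure D5:**
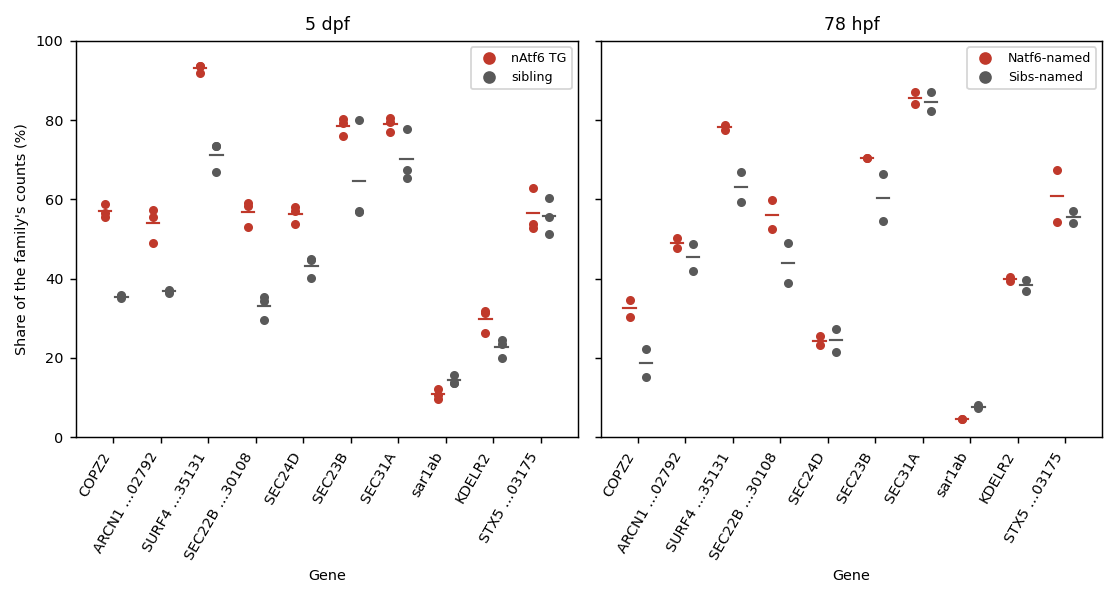
Share (percent) of the counts of its paralog family taken by 1 gene of each family, per library (points) with the group mean (line), for nAtf6 TG (red) and sibling (grey) at 5 dpf and Natf6-named (red) and Sibs-named (grey) at 78 hpf. At 5 dpf the shares of COPZ2, ARCN1 ENSDARG00000002792, SURF4 ENSDARG00000035131, SEC22B ENSDARG00000030108 and SEC24D are higher in every nAtf6 TG library, and at 78 hpf SEC24D is at 24.3% in Natf6-named and 24.5% in Sibs-named libraries.

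At 78 hpf no transport gene passed the test. With 2 libraries a group, 0 of 14555 genes passed in edgeR (0%), 869 (5.97%) had an unadjusted p under 0.05, and DESeq2 called 180 of 16799, 0.982% of them higher and 0.0893% lower. TMED4 was too low to be tested. Of the 47 transport genes tested, 9 had an unadjusted p under 0.05, all of them higher in the Natf6-named libraries, and 43 had a log2 fold change above 0, with a median of 0.37 beside -0.02 over all genes. Every Natf6-named library was above every Sibs-named library in 31 of 47 and below in 1, sar1ab, where all genes gave 19.9% and 19.3%. Sibs-named library 2 was the lower of its group for 43 of the 48 genes on the TMM scale and for 40 by total counts. Natf6-named library 2 was the higher of its group for 39 of the 48 on the TMM scale and for 29 by total counts. TMED1 ENSDARG00000017255 had 109.8 and 146 CPM in the Natf6-named against 25.9 and 25.6 CPM in the Sibs-named libraries, a log2 fold change of 2.31 with an SE of 0.25 and an adjusted p of 0.221. It passed in the model of all 10 libraries (adjusted p = 0.0107) and in DESeq2 (adjusted p = 4.82e-07), the only transport gene to do so. The 10-library model called 0.558% of 20595 genes higher and 0.00971% lower.

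Other genes of the 9 came from several roles. COPZ2 had 41.3 and 53.5 CPM in the Natf6-named against 24.4 and 13.2 CPM in the Sibs-named libraries (log2 fold change 1.33, SE 0.38), and COPB2 had 451 and 503 CPM in the Natf6-named against 292 and 228 CPM in the Sibs-named libraries (log2 fold change 0.87, SE 0.24). COPA, TMED10, TMED2 and USO1 had log2 fold changes of 0.76, 1.02, 0.91 and 0.61. SURF4 ENSDARG00000035131 had 125 and 160.1 CPM in the Natf6-named against 86.1 and 41.5 CPM in the Sibs-named libraries (log2 fold change 1.16, SE 0.42), and SEC22B ENSDARG00000030108 had 34.9 and 44.4 CPM in the Natf6-named against 22.4 and 19.8 CPM in the Sibs-named libraries (log2 fold change 0.91, SE 0.25). In each of them both Natf6-named libraries were above both Sibs-named libraries. They were picked by an unadjusted p under 0.05 in these same libraries, so this order is not a further observation.

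Of the receptors at 78 hpf, 3 of 4 KDEL receptors and 2 of 5 cargo receptors had both Natf6-named libraries above both Sibs-named libraries. This order was found in 19.9% of all genes tested. KDELR2 had 146 and 170.3 CPM in the Natf6-named against 118 and 82.3 CPM in the Sibs-named libraries, and kdelr2a had 198 and 215 CPM in the Natf6-named against 161 and 117 CPM in the Sibs-named libraries. KDELR3 ENSDARG00000040912 had 23.2 and 32.8 CPM in the Natf6-named against 14.6 and 21.7 CPM in the Sibs-named libraries, and KDELR3 ENSDARG00000104519 had 2.00 and 2.98 CPM in the Natf6-named against 2.96 and 2.13 CPM in the Sibs-named libraries. The first 3 did not overlap, with log2 fold changes of 0.66, 0.57 and 0.62, and the last did. LMAN1 had 197 and 220.5 CPM in the Natf6-named against 204 and 73.9 CPM in the Sibs-named libraries, and MCFD2 had 125 and 149.6 CPM in the Natf6-named against 150.1 and 71.6 CPM in the Sibs-named libraries. Both overlapped, with Sibs-named library 2 far below the other 3. LMAN2 had 75.4 and 82.7 CPM in the Natf6-named against 71.1 and 63.2 CPM in the Sibs-named libraries, without overlap, and surf4 ENSDARG00000104647 had 33.6 and 46.3 CPM in the Natf6-named against 42.4 and 28.5 CPM in the Sibs-named libraries, with overlap.

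Among coat genes, all 9 of COPI and 5 of 12 of COPII had both Natf6-named libraries above both Sibs-named libraries, beside 19.9% of all genes tested. SEC23B had 215 and 221 CPM in the Natf6-named against 163 and 87.1 CPM in the Sibs-named libraries, sec23a 90.7 and 93.2 CPM in the Natf6-named against 82.9 and 72.6 CPM in the Sibs-named libraries, and SEC13 132 and 156 CPM in the Natf6-named against 123 and 112 CPM in the Sibs-named libraries. None of these overlapped, with log2 fold changes of 0.80, 0.24 and 0.29. SEC24D had 99.0 and 95.0 CPM in the Natf6-named against 105 and 60.1 CPM in the Sibs-named libraries, and SEC24A had 157 and 175 CPM in the Natf6-named against 143 and 86.5 CPM in the Sibs-named libraries. SEC24D overlapped and SEC24A did not. SEC24B had 61.7 and 57.6 CPM in the Natf6-named against 53.7 and 61.3 CPM in the Sibs-named libraries, and sec24c had 70.2 and 82.9 CPM in the Natf6-named against 82.8 and 71.2 CPM in the Sibs-named libraries, both with overlap. The cage genes SEC31A, with 90.2 and 95.5 CPM in the Natf6-named against 97.4 and 53.7 CPM in the Sibs-named libraries, and SEC31B, with 17.1 and 14.2 CPM in the Natf6-named against 14.4 and 11.6 CPM in the Sibs-named libraries, overlapped. For sar1ab there were 7.23 and 7.55 CPM in the Natf6-named against 12.0 and 8.92 CPM in the Sibs-named libraries, for sar1b 148 and 159.9 CPM in the Natf6-named against 150.3 and 102 CPM in the Sibs-named libraries, and for sec16b 26.8 and 28.3 CPM in the Natf6-named against 19.8 and 3.69 CPM in the Sibs-named libraries. Of these, sar1ab was lower and sec16b higher in both Natf6-named libraries, with log2 fold changes of -0.50 and 1.22 and SEs of 0.31 and 0.79. ARCN1 ENSDARG00000002792 had 127 and 139.7 CPM in the Natf6-named against 109 and 68.5 CPM in the Sibs-named libraries, ARCN1 ENSDARG00000031214 126 and 153 CPM in the Natf6-named against 114 and 94.9 CPM in the Sibs-named libraries, and COPZ1 95.0 and 101 CPM in the Natf6-named against 85.9 and 74.1 CPM in the Sibs-named libraries, with log2 fold changes of 0.58, 0.41 and 0.29.

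Of the remaining genes, TMED1 ENSDARG00000031325 had 4.46 and 2.81 CPM in the Natf6-named against 1.67 and 0.776 CPM in the Sibs-named libraries, and TMED4 had 2.00 and 1.05 CPM in the Natf6-named against 0.926 and 0.776 CPM in the Sibs-named libraries. Both were low, beside the limit of 3 counts, which is 0.472 to 0.616 CPM in these libraries. TMED5 had 22.9 and 29.0 CPM in the Natf6-named against 34.8 and 21.3 CPM in the Sibs-named libraries, and GOSR2 had 52.6 and 54.9 CPM in the Natf6-named against 57.8 and 36.9 CPM in the Sibs-named libraries. Their groups overlapped. SEC22B ENSDARG00000100435 had 31.7 and 29.8 CPM in the Natf6-named against 35.2 and 20.6 CPM in the Sibs-named libraries, with overlap, and STX5 ENSDARG00000003175 had 36.5 and 53.5 CPM in the Natf6-named against 26.7 and 30.7 CPM in the Sibs-named libraries, without. GOLGA2 had 56.5 and 49.5 CPM in the Natf6-named against 54.8 and 44.0 CPM in the Sibs-named libraries, with overlap, USO1 111 and 108 CPM in the Natf6-named against 76.6 and 66.7 CPM in the Sibs-named libraries, and YIPF5 40.2 and 41.6 CPM in the Natf6-named against 36.3 and 28.3 CPM in the Sibs-named libraries, both without. The summed level of the 48 genes by total counts was 5761 and 6290 CPM in the Natf6-named libraries and 4337 and 3614 CPM in the Sibs-named libraries. By role the ratio of the means ran from 1.30 for the COPII coat to 1.79 for the p24 family. COPII took 19.8% and 18.2% of these counts in the Natf6-named libraries and 22.7% and 21.4% in the Sibs-named libraries.

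Libraries of 78 hpf differed in markers of other cells. Exocrine pancreas markers summed to 218 and 6567 CPM in Natf6-named libraries 1 and 2 and to 69.1 and 41.1 CPM in Sibs-named libraries 1 and 2, and the defining pancreas gene PTF1A was at 12.7 CPM in Natf6-named library 2 and at 0 in the other 3. Muscle markers summed to 1010 and 90.0 CPM in the Natf6-named and 1048 and 7232 CPM in the Sibs-named libraries, and endothelial and stellate markers to 2703 and 363 CPM in the Natf6-named and 1138 and 6552 CPM in the Sibs-named libraries. Of the latter sums, the collagen gene col1a1a made up 2133 and 36.7 CPM in the Natf6-named and 381 and 5421 CPM in the Sibs-named libraries. Endothelial kdrl had 141 and 136 CPM in the Natf6-named against 201 and 237 CPM in the Sibs-named libraries. For cdh5, also endothelial, there were 89.9 and 76.8 CPM in the Natf6-named against 101 and 149 CPM in the Sibs-named libraries. Hepatocyte markers summed to 37103 and 38941 CPM in the Natf6-named and 62763 and 27317 CPM in the Sibs-named libraries. Without Natf6-named library 2, with the high pancreas sum, the median log2 fold change of the transport genes was 0.38, with 43 of 48 above 0. Without Sibs-named library 2, with the high muscle sum and the high col1a1a level, it was 0.28, with 37 of 48 above 0, and without Sibs-named library 1 it was 0.66. No gene passed in any of these. The part of RNA from muscle and other cells in the levels of Sibs-named library 2 was not tested.

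The ages were set against each other in a model of all 10 libraries. The difference was Natf6-named minus Sibs-named at 78 hpf less nAtf6 TG minus sibling at 5 dpf. In edgeR it passed for 0 of the 48 genes, and for 14 of all 20595 genes (0.068%) in either direction. At an unadjusted p under 0.05 there were 6 of 48 transport genes, each with a smaller log2 fold change at 78 hpf. This share was no larger than that of all genes, of which 13.2% had such a p in either direction. The median of the 48 differences was -0.53 on the log2 scale, with 12 above 0, beside 0.06 over all genes. For KDELR2 the log2 fold change was 0.66 at 78 hpf and 2.03 at 5 dpf, for SEC22B ENSDARG00000030108 0.91 and 2.24, and for COPG2 0.47 and 1.47. Of the 30 genes raised at 5 dpf, 30 had a log2 fold change above 0 at 78 hpf and 25 did not overlap, and among all genes raised at 5 dpf and tested at both ages 76.8% of 2143 were above 0 and 51.4% did not overlap, with the Natf6-named libraries higher. In paralog shares, COPZ2 took 30.3% and 34.7% in the Natf6-named against 22.1% and 15.1% in the Sibs-named libraries, and SURF4 ENSDARG00000035131 78.9% and 77.5% in the Natf6-named against 67.0% and 59.3% in the Sibs-named libraries. SEC24D took 25.5% and 23.2% in the Natf6-named and 27.4% and 21.5% in the Sibs-named libraries, with overlap. With 2 libraries a group the smallest exact permutation p is 0.333.

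Around the 48 genes, 78 further identifiers of the same route were listed: regulators of COPII, the Arf cycle that recruits COPI, proteins of the ER-Golgi intermediate compartment (ERGIC), other SNAREs, and other tethers and Rab GTPases. At 5 dpf 76 were tested, 45 were higher and 2 lower, with a median log2 fold change of 0.78. Over all 18470 genes tested, 13.7% were higher and 7.48% lower, with a median of -0.04. Of the Arf cycle 8 of 9 rose, of ERGIC proteins 5 of 7, of COPII regulators 8 of 11 with 1 lower, of other SNAREs 4 of 11 with 1 lower, and of other tethers and Rabs 20 of 38. The largest changes were those of arf4b, an Arf GTPase, at 31.1 ± 3.53 CPM in nAtf6 TG and 0.958 ± 0.156 CPM in sibling livers (log2 fold change 5.01, SE 0.20, adjusted p = 5.09e-05), of lman2la, a lectin gene related to LMAN2, at 46.0 ± 19.3 CPM in nAtf6 TG and 2.00 ± 0.280 CPM in sibling livers (log2 fold change 4.51, SE 0.39, adjusted p = 0.000504), and of ERGIC3, a receptor cycling between ER and Golgi, at 91.3 ± 28.7 CPM in nAtf6 TG and 8.51 ± 1.51 CPM in sibling livers (log2 fold change 3.43, SE 0.30, adjusted p = 0.000535). Each n is 3 libraries and each error an SD. Among those that passed, the lowest log2 fold changes were those of VTI1B, an endosomal SNARE, at 10.5 ± 2.18 CPM in nAtf6 TG and 20.6 ± 6.09 CPM in sibling livers (log2 fold change -0.98, SE 0.27, adjusted p = 0.0393), of klhl12, whose human protein is an adaptor for the ubiquitination of SEC31, at 1.42 ± 0.161 CPM in nAtf6 TG and 2.78 ± 0.104 CPM in sibling livers (log2 fold change -0.97, SE 0.22, adjusted p = 0.0229), and of YKT6, a lipid-anchored SNARE, which was higher at 16.8 ± 1.04 CPM in nAtf6 TG and 11.0 ± 1.33 CPM in sibling livers (log2 fold change 0.61, SE 0.15, adjusted p = 0.0277). At 78 hpf 0 of 73 passed in edgeR and 14 had an unadjusted p under 0.05, all higher in the Natf6-named libraries. Of all genes tested, 5.97% had such a p in either direction. The model of all 10 libraries called 2 of 76, arf4b and lman2la, and DESeq2 called 2 of 75, lman2la and tmed6, each of them higher. Over all genes, that model called 0.558% higher and DESeq2 0.982%. Counts of arf4b were 8 and 5 in the Natf6-named and 0 and 0 in the Sibs-named libraries. Counts of tmed6, named here after its values were seen, were 25 and 207 in the Natf6-named and 1 and 0 in the Sibs-named libraries, highest in Natf6-named library 2 with its high pancreas sum.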

How the data were processed

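RNA was sequenced from 10 pools of zebrafish livers, 6 at 5 dpf and 4 at 78 hpf. For the same 32105 Ensembl genes in each library, the authors deposited raw read counts that had not been normalized. The submitters' processing notes name FastQC 0.11.5, Trimmomatic, TopHat2 2.1.0, HTSeq and DESeq2 for the 5 dpf libraries, and CASAVA, MultiQC 1.7, HTSeq and DESeq2 for those of 78 hpf, all with GRCz10. The aligner of 78 hpf, the annotation release and the strand setting are not given in the sources used here. At 78 hpf, entries of htseq-count that name no gene held 35.3% and 37.1% of reads in Natf6-named libraries 1 and 2. They held 38.0% and 47.4% in Sibs-named libraries 1 and 2. Sibs-named library 2 thus had the largest share, and it also had the fewest counts on genes. These entries were left out. The limit of 3 counts below which a level was read as near 0 covers counting error only, since reads without molecular identifiers are not independent molecules.

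Symbols came from a table naming 26269 identifiers. The transport genes, their roles and the further lists were chosen with earlier results of these data known. Per-library values were given for every KDEL and cargo receptor, for the 2 largest and the 1 smallest log2 fold change at 5 dpf in each other role, and for paralog families.

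Counts were tested in R 4.3.3 with edgeR 4.0.16 (filterByExpr, TMM, quasi-likelihood test, Benjamini-Hochberg adjustment over all genes tested, threshold 0.05), within each age, and across ages in 1 model of 10 libraries. DESeq2 1.42.0, RLE scaling, no filter, a replicate block, leaving out libraries and other alternatives are given in the closing section. Each SE given, in the text and in the figures, is the absolute log2 fold change divided by the square root of the F statistic of the edgeR test. It is not a separate estimate. Shares were compared with exact 2-sided permutation tests. The test was also run on simulated counts, and no result here rests on the outcome. Its power with 2 libraries a group is not given. Groups came from titles at 5 dpf. At 78 hpf titles and file names conflict, and the direction followed the file names. The titles of 78 hpf give clutch numbers, which would pair the libraries. The file names number them otherwise, 1 and 3 for Natf6 and 1 and 2 for Sibs, so the pairing is uncertain. After subtraction of group means, libraries of the same titled clutch had a correlation of -0.145. With 2 libraries a group, the crossed pairs have the same value with a positive sign by construction. Libraries of a group all differed by more than sampling noise, with a chi-square per gene of 3.28 for the closest pair, nAtf6 TG libraries 2 and 3. That pools of a group came from separate clutches is stated for the whole of each age only, so p-values measure the spread between these pools.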

Additional observations from a re-analysis of the deposited data

How the results depend on the processing

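At 5 dpf, 0 transport genes were lower under every alternative run. The number raised, 30, was 27 with RLE scaling, 32 in DESeq2, 30 without a filter, 27 in the model of all 10 libraries, 27 with a replicate block, 34 with scaling by library size alone, and 19 to 37 with 1 library left out. No label ties a replicate number of 5 dpf to a clutch, and libraries of equal number correlated by 0.0915, 0.0697 and -0.0722 once group means were subtracted. Genes called in all, 3913, numbered 1361 to 7598 with 1 library left out, and the medians then ran from 0.98 to 1.39 for p24 and from 0.21 to 0.68 for cargo receptors. Without both libraries that stood apart (nAtf6 TG 1 and sibling 2), 13690 of 19941 genes tested and 42 of 48 transport genes passed. Only the closest pair of each group was left, and most genes of any role passed. The median log2 fold change in that fit was 1.32 over all transport genes, 0.42 for COPII, 1.85 for COPI and 1.46 for p24. It was 0.65 for cargo receptors, 2.04 for KDEL receptors, 1.60 for SNAREs and 1.21 for tethers. This alternative, scaling by library size alone and the crossed block were chosen after seeing the data. Directions turned only for transport genes that did not pass at that age. At 5 dpf SEC24A, at -0.0117 as reported, was at 0.0101 in DESeq2, 0.0633 without a filter, 0.00014 in the model of all 10 libraries, 0.0118 with a replicate block, 0.0729 by library size, -0.16 to 0.19 with 1 library left out and 0.23 without both libraries apart, where surf4 ENSDARG00000104647 was at 0.29. With 1 library left out, sar1ab ran from -0.25 to 0.0366, sec16b from -0.58 to 0.0775, sec24c from -0.10 to 0.18 and surf4 ENSDARG00000104647 from -0.38 to 0.21.

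At 78 hpf, edgeR called 0 genes, against 180 in DESeq2, 8 without a filter and 117 in the model of all 10 libraries, with 1 transport gene in DESeq2 and 1 in that model. The p24 median of 0.69 was 0.86 in DESeq2, 0.87 without a filter and 0.97 in the 10-library model, all of which also took in TMED4, and the SNARE median was 0.43 in the last. By the titles every value changes sign by construction, with medians of -0.37 over all transport genes, -0.28 for COPII, -0.58 for COPI, -0.69 for p24, -0.31 for cargo receptors, -0.60 for KDEL receptors, -0.29 for SNAREs and -0.34 for tethers. The difference between the ages then passed for 1786 genes and for 25 transport genes, all lower, with a median of -1.51. It passed for 14 genes as reported, for 0 with a replicate block and for 134 without a filter. With 1 library left out, the lone library of a group being assumed to vary like the others, the median at 78 hpf was 0.28 to 0.66 over all transport genes, 0.13 to 0.58 for COPII, 0.37 to 0.83 for COPI, 0.68 to 1.03 for p24, 0.0318 to 1.01 for cargo receptors, 0.29 to 0.62 for SNAREs and 0.17 to 0.60 for tethers. Single genes then ran from -0.0695 to 0.86 for SEC31A, -0.11 to 0.17 for sec24c, -0.12 to 0.76 for SEC24D, -0.42 to 0.35 for TMED5, -0.13 to 1.01 for MCFD2, -0.0869 to 0.55 for surf4 ENSDARG00000104647, -0.33 to 0.29 for KDELR3 ENSDARG00000104519, -0.19 to 0.65 for SEC22B ENSDARG00000100435, -0.10 to 0.61 for GOSR2 and -0.0488 to 0.34 for GOLGA2, the lowest without Sibs-named library 2 except for KDELR3 ENSDARG00000104519, which was lowest without Natf6-named library 2. At -0.00867 as reported, sec24c was at 0.0053 in DESeq2, 0.0262 without a filter and 0.14 in the 10-library model, where TMED5 was at 0.0306 and KDELR3 ENSDARG00000104519 at 0.11. A replicate block by titled clutch number called 0 genes at 78 hpf and changed no call there, and with crossed numbers 0 genes were called as well. Mean depth was 3.57 times higher at 5 dpf than at 78 hpf, where groups hold 2 libraries, and the part of depth and group size in the number called was not tested.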
